A study of Mus musculus with 24 samples.

Results

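Levels of 10 genes of the microRNA pathway were followed, out of 55487 genes in the deposited count files. Each was chosen by name as an enzyme, RNA-binding partner, carrier or Argonaute of that pathway. They comprise the nuclear processing genes Drosha, Dgcr8, Ddx5 and Ddx17, the export gene Xpo5, the cytoplasmic processing genes Dicer1 and Tarbp2, and the Argonaute genes Ago1, Ago2 and Ago3. MicroRNAs are short RNAs cut from hairpins in longer transcripts: DROSHA, held to the hairpin by DGCR8 and helped on some hairpins by the DEAD-box helicases DDX5 (p68) and DDX17 (p72), makes the first cut in the nucleus, and XPO5 carries the hairpin out. DICER1, with its partner TARBP2, makes the second cut, and 1 strand is loaded into an Argonaute protein, which then lowers the translation and stability of messenger RNAs that pair with it. Loss of Dicer1 in mouse blood progenitors is known to impair hematopoietic stem cells, and Ago2 is known in mouse to support red cell development.

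RNA was measured in sorted mouse hematopoietic stem cells (HSCs), the source of every blood lineage, in 24 Smart-seq2 libraries that form 3 experiments on PUS10, an enzyme that turns uridine in RNA into pseudouridine, and on miR-139. The groups were PUS10-OE (overexpression, n = 3) with Vector (n = 3), miR139-KD (knockdown, n = 6) with NTC, the non-target control (n = 6), and Pus10-KO (n = 3) with Pus10-WT (n = 3). Strain, age, sex, the expression or knockdown vector and the knockout allele are not given in the labels, which name a cell type and a genotype and no treatment or time. Nor do the labels say whether replicate libraries are from different animals, so each p-value measures a spread between libraries that could be partly technical.

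Depth in counts over all genes (M, mega) was 40.9 to 42.6 M in PUS10-OE and 34.2 to 47.3 M in Vector, 9.87 to 14.4 M in miR139-KD and 11.8 to 14.7 M in NTC, and 11.9 to 18.2 M in Pus10-KO and 14.5 to 16.5 M in Pus10-WT. Pus10, the check of the labels, had 285, 246 and 242 CPM in PUS10-OE, against 53.6, 92.8 and 81.5 CPM in Vector, without overlap, but did not pass the test over all genes (edgeR adjusted p = 0.278). CPM are counts per mega (M) counts of a library, scaled by TMM, a factor that aligns the bulk of the genes between libraries. In the third experiment Pus10 had 35.6, 33.7 and 36.3 CPM in the libraries labelled Pus10-KO, against 19.6, 31.8 and 33.8 CPM in Pus10-WT. The deleted part of the gene is not given in the labels, and the gene's level was not lower in the libraries that carry the knockout label. Markers of other blood cells were uneven: the summed level of 6 B and plasma cell markers was 4.23 to 14.8 CPM in the libraries labelled Pus10-KO, where Cd79a, Ms4a1 and Ebf1 were at 0, against 13114 to 15451 CPM in Pus10-WT. The same sum was 9599 CPM in miR139-KD replicate 5 and 10688 CPM in NTC replicate 5, and 27.1 to 2941 CPM in the other libraries of that experiment. The summed level of 10 HSC markers ranged from 494 CPM in an NTC library to 2986 CPM in a Pus10-WT library, and all 10 were detected in every group.

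The microRNA under knockdown is shown first, with its seed (bases 2 to 8, the stretch that pairs with a target) in capitals, because matches to this stretch in the 10 genes are given below. Then come the products of 1 hairpin inside Ddx5 and 1 inside Dgcr8, the genes on which most of the results below turn. A second hairpin of Dgcr8, that of miR-3618, and the microRNA gene Gm25994 inside Ddx5 are not shown. All sequences shown are mature sequences from RefSeq on GRCm38.p6.
mmu-miR-139-5p: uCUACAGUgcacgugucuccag
mmu-miR-139-3p: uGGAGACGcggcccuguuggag
mmu-miR-3064-5p: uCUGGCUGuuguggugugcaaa
mmu-miR-3064-3p: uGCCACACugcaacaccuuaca
mmu-miR-1306-5p: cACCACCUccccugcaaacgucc
mmu-miR-1306-3p: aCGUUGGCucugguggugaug
No 2 of these 6 share a seed. The miR-139 arms come from the plus strand of chromosome 7, at chr7:101475382-101475403 and chr7:101475418-101475439. The miR-3064 hairpin lies on the minus strand at chr11:106782693-106782759, in intron 11 of the Ddx5 transcript ENSMUST00000021062 with 1 base in exon 12 of 13, while all 67 of its bases are exonic when every transcript of the gene is counted. The miR-1306 hairpin lies on the minus strand at chr16:18284239-18284317, wholly inside the coding part of exon 2 of 14 in the Dgcr8 transcript ENSMUST00000009321. The hairpin Mir693 lies on the plus strand at chr17:46231531-46231619, in intron 20 of the Xpo5 transcript ENSMUST00000087031. The genes listed for these hairpins, and the gene of miR-139 itself, had 0 counts in all 24 libraries. Reads on bases that a hairpin shares with exons of its host, as the miR-3064 and miR-1306 hairpins do, fall in both genes and may be counted for neither, so these zeros do not measure the hairpins. Mature microRNAs also carry no poly(A) tail, on which this library type relies.

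Seed matches to miR-139 were searched in the 3′ untranslated regions of the 10 genes, on the transcript strand only. The 7-base match to miR-139-5p, ACTGTAG, was found in 0 of the 10 genes, while 12.0% of 11044 genes with such a region held it. The match to miR-139-3p, CGTCTCC, was found in 1 of the 10 genes, Ago2, while 3.60% of the 11044 genes held it. That match lies at chr15:73096177-73096183 on the minus strand, with the match in capitals:
Ago2 match to miR-139-3p: gaacactgcgCGTCTCCtgtcctgttt
A match is a description of these letters and not of binding. Region length differed widely, at 11064 bases for Ago2 and 168 bases for Drosha.

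All 10 genes were detected in every library, with the lowest count, 119 reads, for Dgcr8 in an NTC library and the highest, 149934 reads, for Ddx5 in a Vector library. Levels between genes were compared as TPM, which divides by exon length. Ddx5 was the most abundant of the 10 in all 6 groups and its range was separate from the next gene in each. It averaged 1193 ± 113 TPM in PUS10-OE and 1424 ± 63.9 TPM in Vector (SD, n = 3 each). The mean was 260 ± 23.7 TPM in miR139-KD and 364 ± 52.1 TPM in NTC (SD, n = 6 each). In the third experiment it was 749 ± 58.1 TPM in the libraries labelled Pus10-KO and 718 ± 87.1 TPM in Pus10-WT (SD, n = 3 each). At the low end stood Ago3 and Dicer1, last and next to last in 4 groups, whose ranges overlapped each other there. In miR139-KD and NTC the last gene was Ago3, at 2.89 ± 1.07 and 2.62 ± 1.13 TPM (SD, n = 6 each), with Dgcr8 above it. Between these ends, Ddx17 came next after Ddx5 in miR139-KD, NTC, the libraries labelled Pus10-KO and Pus10-WT. Its means there were 80.6, 71.8, 105 and 68.5 TPM, and its range in each was separate from the gene below it. In PUS10-OE and Vector its rank was 4, at 15.9 and 15.8 TPM. Xpo5, Tarbp2, Drosha, Ago1 and Ago2 followed each other with ranges that mostly overlapped, though in Vector most were separate.

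**Figure D1:**
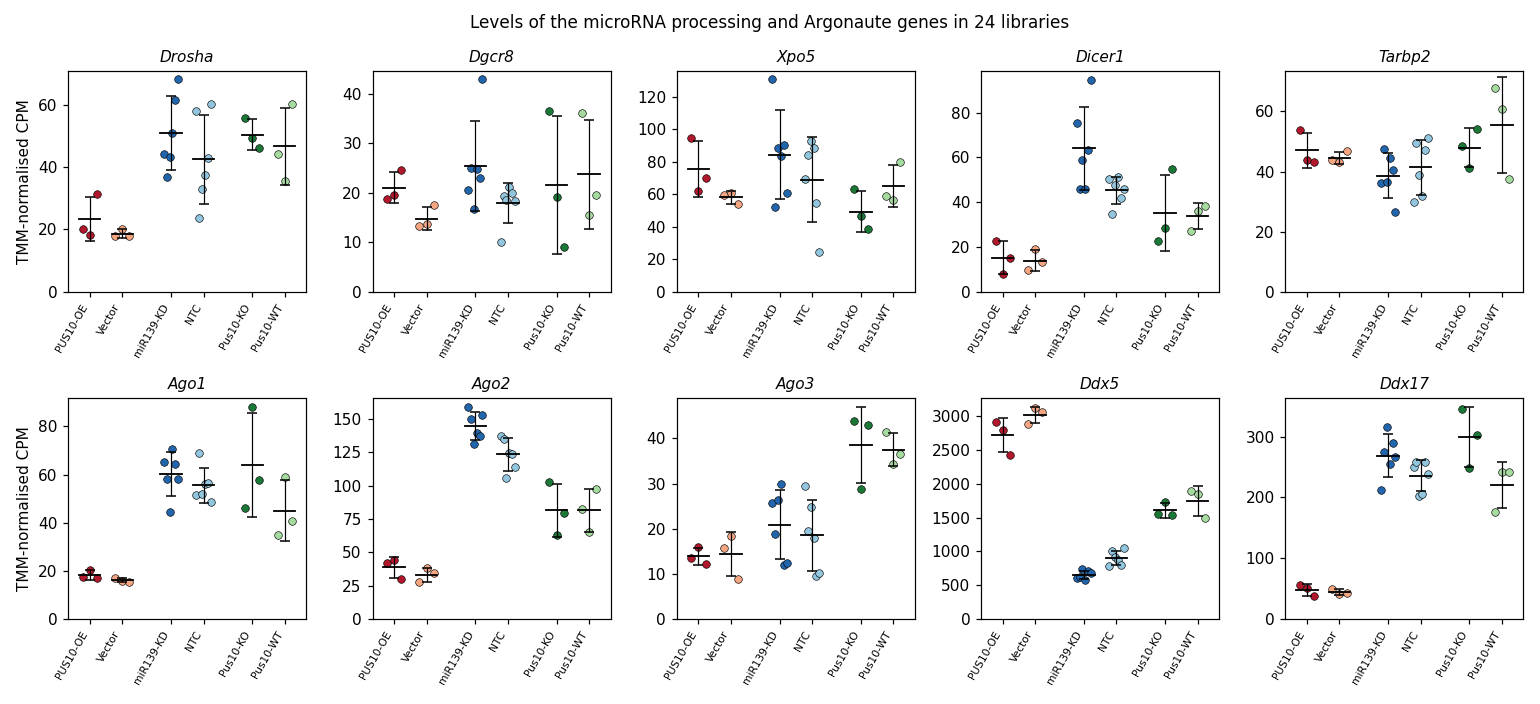
Level of each of the 10 genes (TMM-normalised CPM, vertical axes from 0) in the 24 libraries. Points are libraries, lines the group mean and bars the SD; each treated group stands left of its own control, and scaling was done within each experiment. In the Ddx5 panel all 6 miR139-KD libraries, 570 to 734 CPM, lie below all 6 NTC libraries, 779 to 1046 CPM.

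The question of each experiment was which genes differed in HSCs under the named manipulation, tested with edgeR's quasi-likelihood test over all genes with Benjamini-Hochberg adjustment, and a gene was called at an adjusted p under 0.05. All 10 genes passed the filter on low counts in each of the 3 experiments. In miR139-KD 1 of the 10 genes was called, Ddx5, where 361 of 13295 genes (2.72%) were called and 174 (1.31%) were called lower. In PUS10-OE 0 of the 10 were called, where 0 of 14834 genes (0%) were. In the libraries labelled Pus10-KO 0 of the 10 were called, where 9 of 14657 genes (0.0614%) were. At an unadjusted p under 0.05 stood 1 of the 10 in PUS10-OE (8.19% of all genes), 3 in miR139-KD (16.0%) and 1 in the libraries labelled Pus10-KO (6.86%). DESeq2 called 248, 1078 and 233 genes in the 3 experiments and, of the 10, again 0 in PUS10-OE, Ddx5 in miR139-KD and 0 in the libraries labelled Pus10-KO. The count of 361 moved by more than 1.5 times without NTC replicates 2, 3 or 4 (224, 196 and 237) or miR139-KD replicates 1 or 2 (238 and 229). The count of 9 was 2, 1 and 1 without Pus10-WT replicates 1, 2 and 3 and 0 without replicate 2 or 3 of Pus10-KO. The median log2 fold change of the 10 genes was 0.15 in PUS10-OE, 0.21 in miR139-KD and 0.02 in the libraries labelled Pus10-KO, beside medians of 0.0059, 0.02 and -0.0034 over all genes tested. In those experiments 8, 8 and 6 of the 10 had a positive fold change, as had 7527 of 14834, 6836 of 13295 and 7278 of 14657 of all genes.

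**Figure D2:**
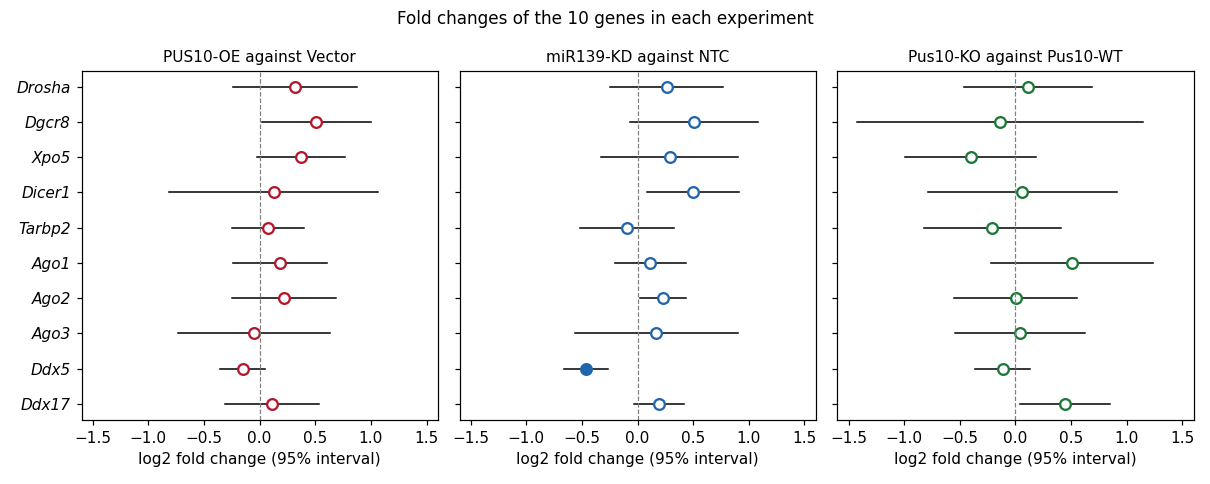
Log2 fold change of each gene (horizontal axes; circles) with its 95% interval (lines), treated group over control, in the 3 experiments. The filled circle is Ddx5 in miR139-KD, -0.46, with an edgeR adjusted p of 0.0148; open circles had an adjusted p of 0.05 or more.

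Ddx5 fell in miR139-KD. This gene (ENSMUSG00000020719.14, minus strand, chr11:106780355-106789185, mm10) encodes an RNA helicase of the DROSHA complex that also works in splicing and transcription. It had 612, 617, 734, 570, 712 and 673 CPM in miR139-KD libraries, against 779, 1001, 912, 867, 794 and 1046 CPM in NTC libraries. All 6 miR139-KD libraries were below all 6 NTC libraries, with no overlap, and the highest miR139-KD library lay close under the lowest NTC library. The means were 653 ± 63.7 CPM in miR139-KD and 900 ± 108 CPM in NTC (SD, n = 6 each). On the log2 scale the difference was -0.46 with an SE of 0.0915 and a 95% interval of -0.66 to -0.27 (edgeR adjusted p = 0.0148). Separation of this kind, lower in the treated group, was seen in 1 of the 10 genes and in 1.78% of all genes tested. The call was lost when miR139-KD replicate 1 and NTC replicate 6, the library least correlated with the rest of its group in each, were left out together (log2 fold change -0.39, edgeR adjusted p = 0.0597). It held in 21 of 22 alternatives, with log2 fold changes of -0.52 to -0.39 over all 22, including each library left out alone and the replicates 5 with the B and plasma cell transcripts left out together (edgeR adjusted p = 0.0200).

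Transcripts of other cells moved with the same contrast. The summed level of 5 multipotent progenitor markers was 275 to 348 CPM in miR139-KD, against 670.5 to 1224 CPM in NTC, and all 5 fell. The summed level of 6 megakaryocyte markers was 1112 to 2810 CPM in miR139-KD, against 65.6 to 314 CPM in NTC. All 5 tested had a positive fold change, and 4 were called higher. The HSC marker sum was 728 to 888 CPM in miR139-KD and 494 to 786 CPM in NTC, with 1 of 10 markers called higher. Erythroid markers summed to 292 to 8608 CPM in miR139-KD and 125 to 8622 CPM in NTC, and granulocyte markers to 1051 to 14791 CPM and 1475 to 14488 CPM. No marker of these 5 lists, or of the B and plasma cell list, was at 0 throughout either group. Of 5 B and plasma cell markers tested, 1 was called, Cd79a, a part of the B cell receptor, which fell (log2 fold change -2.82, edgeR adjusted p = 0.0112). The summed level of 6 T cell markers was 0.799 to 13.6 CPM in miR139-KD, against 41.4 to 62.2 CPM in NTC, without overlap. Nearly all of that sum was Lck, a kinase of T cell receptor signalling, which was the 1 marker of the list tested and fell (log2 fold change -3.12, edgeR adjusted p = 0.00226). The defining T cell markers Cd3e, Cd3g and Cd8a were at 0 in every library of both groups, and Cd3d in every miR139-KD library. The part of all these transcripts in the Ddx5 result was not tested. In such bulk samples, fewer cells of a type and less RNA per cell cannot be told apart. The share of reads that could not be assigned to 1 gene was 12.3% to 20.1% in miR139-KD and 13.0% to 16.5% in NTC. Its part in the result was not tested either.

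Ddx5 was not called in the other experiments. It had 2917, 2804 and 2434 CPM in PUS10-OE, against 2891, 3119 and 3062 CPM in Vector, with overlap (log2 fold change -0.15, 95% interval -0.35 to 0.05, edgeR adjusted p = 0.741). The libraries labelled Pus10-KO had 1556, 1733 and 1534 CPM, against 1887, 1849 and 1489 CPM in Pus10-WT, also with overlap (log2 fold change -0.12, 95% interval -0.37 to 0.13, edgeR adjusted p = 0.958). All 3 estimates were negative, and the samples of the 3 experiments are separate. The intervals for PUS10-OE and for the libraries labelled Pus10-KO included 0. By TPM the direction in the third experiment was the other way, with mean Ddx5 at 749 TPM in the libraries labelled Pus10-KO and 718 TPM in Pus10-WT. The difference between the miR139-KD and PUS10-OE fold changes was -0.34 with an SE of 0.147 and a 95% interval of -0.64 to -0.03 (edgeR adjusted p = 0.509). The difference between the miR139-KD fold change and that of the libraries labelled Pus10-KO was -0.38 with an SE of 0.147 and a 95% interval of -0.68 to -0.07 (edgeR adjusted p = 0.368). The fold change of Ddx5 is thus not shown to differ between experiments. Of the 10 genes, 0 were called in each of the 3 tests of such differences by edgeR and by DESeq2, where edgeR called 0.0510% of 17664 genes for miR139-KD less PUS10-OE, 0.294% for miR139-KD less Pus10-KO and 0.0226% for PUS10-OE less Pus10-KO. At an unadjusted p under 0.05 there was 1 of the 10 in each of the tests with miR139-KD, Ddx5 both times, and 0 in the last.

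Ddx17 encodes the close relative of DDX5 that can stand in for it on many RNAs. This gene (ENSMUSG00000055065.7, minus strand, chr15:79527736-79546741) had 346, 249 and 303 CPM in the libraries labelled Pus10-KO, against 176, 242 and 241 CPM in Pus10-WT. The groups did not overlap, although the lowest library labelled Pus10-KO and the highest Pus10-WT library were close, and the gene did not pass the test (log2 fold change 0.45, SE 0.174, 95% interval 0.04 to 0.85, edgeR adjusted p = 0.667). It was 1 of the 10 genes without overlap in that experiment, where 13.7% of all genes had none and 6.86% had none and were higher. Ddx17 had 212, 275, 316, 255, 290 and 267 CPM in miR139-KD, against 250, 259, 203, 205, 258 and 238 CPM in NTC, with overlap (log2 fold change 0.19, 95% interval -0.03 to 0.42, edgeR adjusted p = 0.407). In PUS10-OE it had 56.5, 50.2 and 37.3 CPM, against 49.8, 40.6 and 42.8 CPM in Vector, and the ranges overlapped (log2 fold change 0.11, edgeR adjusted p = 0.958).

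The pair of groups in the third experiment also differed in transcripts of other cells: beside the B and plasma cell markers given above, 6 erythroid markers summed to 261 to 5517 CPM in the libraries labelled Pus10-KO, against 261 to 278 CPM in Pus10-WT. The summed level of 7 granulocyte markers was 606, 2513 and 3884 CPM in the libraries labelled Pus10-KO, where Ngp was at 0, against 538 to 814 CPM in Pus10-WT, where Ctsg was at 0. In both lists 2 of the 3 libraries labelled Pus10-KO stood above every Pus10-WT library. Of the 6 erythroid and 4 granulocyte markers tested, 0 were called by edgeR, with 5 and 1 at an unadjusted p under 0.05. The part of these transcripts in the Ddx17 values was not tested.

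The ratio of Ddx5 to Ddx17, taken per exon length within each library, does not depend on how libraries are scaled. It was 2.97 to 3.83 in miR139-KD, against 4.08 to 5.95 in NTC, with no overlap and means of 3.24 ± 0.324 and 5.11 ± 0.832 (SD, n = 6 each). In PUS10-OE it was 68.3 to 86.3, against 76.8 to 102 in Vector, and the ranges overlapped. It was 5.95 to 9.21 in the libraries labelled Pus10-KO, against 8.16 to 14.2 in Pus10-WT, also with overlap. The ratio was chosen after the values of both genes had been seen and is given without a test.

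**Figure D3:**
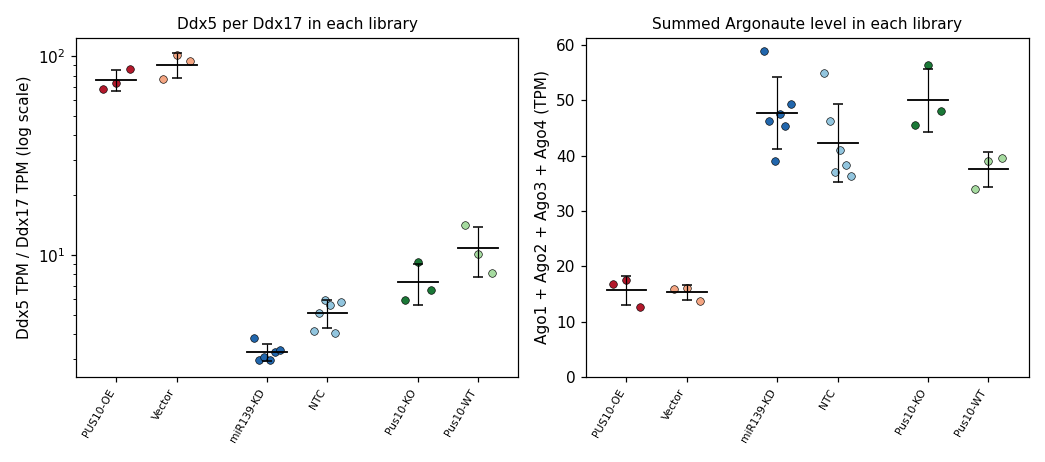
Left, Ddx5 TPM over Ddx17 TPM in each library on a log axis; right, the summed TPM of Ago1, Ago2, Ago3 and Ago4 on a linear axis from 0. Points are libraries, lines the group mean and bars the SD. The miR139-KD libraries, 2.97 to 3.83 Ddx5 per Ddx17, lie below the NTC libraries, 4.08 to 5.95.

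Drosha and Dgcr8 encode the ribonuclease and the hairpin-binding partner of the nuclear complex. Dgcr8 (ENSMUSG00000022718.12, minus strand, chr16:18253948-18289246) had 18.8, 19.6 and 24.7 CPM in PUS10-OE, against 13.2, 13.6 and 17.5 CPM in Vector. All PUS10-OE libraries were above all Vector libraries, but the gene did not pass the test (log2 fold change 0.51, SE 0.211, 95% interval 0.02 to 1.00, edgeR adjusted p = 0.594). Without overlap in that experiment were 2 of the 10 genes, Dgcr8 and Xpo5, both higher, where 15.1% of all genes had no overlap and 8.31% had none and were higher. In the same libraries the multipotent progenitor markers summed to 869 to 885 CPM in PUS10-OE, against 1204 to 1254 CPM in Vector, and megakaryocyte markers to 249 to 449 CPM, against 153 to 180.4 CPM. Their part in the Dgcr8 and Xpo5 values was not tested. In miR139-KD, Dgcr8 had 20.5, 24.9, 16.7, 24.9, 22.9 and 42.9 CPM, against 10.0, 19.4, 18.6, 21.1, 19.9 and 18.4 CPM in NTC. The ranges overlapped, and 1 library in each group stood far from the rest, the highest of miR139-KD and the lowest of NTC (log2 fold change 0.51, 95% interval -0.07 to 1.09, edgeR adjusted p = 0.391). In the third experiment the gene varied widely within groups, with 36.6, 19.2 and 9.11 CPM in the libraries labelled Pus10-KO, against 36.2, 15.4 and 19.6 CPM in Pus10-WT. Its interval there, -1.42 to 1.15 on the log2 scale, was the widest of the 30 estimates for the 10 genes. Of its exonic bases, 10.7% overlap Trmt2a on the opposite strand, and since these libraries do not mark the strand, reads of the shared stretch cannot be told apart.

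Drosha (ENSMUSG00000022191.16, plus strand, chr15:12824815-12935291) had 20.1, 18.3 and 31.4 CPM in PUS10-OE, against 18.0, 20.2 and 17.7 CPM in Vector, with overlap (log2 fold change 0.32, edgeR adjusted p = 0.837). The range was 36.9 to 68.3 CPM in miR139-KD (median 47.7) and 23.7 to 60.1 CPM in NTC (median 40.2), and the log2 fold change 0.26 did not pass the test (edgeR adjusted p = 0.670). The libraries labelled Pus10-KO had 55.8, 49.4 and 46.1 CPM, against 44.1, 35.7 and 60.1 CPM in Pus10-WT, which span them. Drosha and Dgcr8, whose proteins act in 1 complex, did not keep a fixed ratio: Drosha TPM over Dgcr8 TPM ran from 1.21 in a PUS10-OE library to 7.50 in an NTC library.

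Xpo5 encodes the carrier of hairpins out of the nucleus. The gene (ENSMUSG00000067150.6, plus strand, chr17:46202782-46243598) had 94.8, 61.9 and 70.0 CPM in PUS10-OE, against 59.8, 61.1 and 53.8 CPM in Vector. The groups did not overlap, but by less than 1 CPM, and the gene did not pass the test (log2 fold change 0.37, 95% interval -0.02 to 0.77, edgeR adjusted p = 0.647). In miR139-KD it ranged from 52.4 to 131 CPM (median 85.9), against 24.5 to 92.6 CPM in NTC (median 77.1), with overlap (log2 fold change 0.29, edgeR adjusted p = 0.712). The libraries labelled Pus10-KO had 63.3, 46.5 and 38.5 CPM, against 59.1, 56.7 and 80.1 CPM in Pus10-WT, again with overlap (log2 fold change -0.40, 95% interval -0.99 to 0.19, edgeR adjusted p = 0.885).

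Dicer1 encodes the ribonuclease of the second cut. The gene (ENSMUSG00000041415.10, minus strand, chr12:104687742-104751952) had 75.2, 46.1, 58.9, 46.0, 63.4 and 94.4 CPM in miR139-KD, against 50.2, 34.7, 47.8, 51.2, 41.7 and 46.0 CPM in NTC. In words, 4 miR139-KD libraries lay above every NTC library and the other 2 within the NTC range. The log2 fold change was 0.50 (SE 0.192, 95% interval 0.09 to 0.91), and the gene did not pass the test (edgeR adjusted p = 0.203). In PUS10-OE it had 22.5, 7.94 and 15.1 CPM, against 9.63, 18.9 and 13.2 CPM in Vector, and in the libraries labelled Pus10-KO 22.8, 28.6 and 54.6 CPM, against 27.3, 36.0 and 38.5 CPM in Pus10-WT. The treated libraries spanned the control range in both experiments, with log2 fold changes of 0.13 and 0.06.

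Tarbp2, which encodes the double-stranded RNA binding partner of DICER1, varied little in the first experiment. The gene (ENSMUSG00000023051.11, plus strand, chr15:102518192-102523676) had 53.9, 44.0 and 43.2 CPM in PUS10-OE, against 43.9, 43.1 and 46.8 CPM in Vector (log2 fold change 0.08, 95% interval -0.25 to 0.40, edgeR adjusted p = 0.967). Its range was 26.5 to 47.5 CPM in miR139-KD (median 38.6) and 29.9 to 51.2 CPM in NTC (median 43.0), with a log2 fold change of -0.10. In the libraries labelled Pus10-KO it had 48.6, 41.3 and 54.0 CPM, against 67.8, 61.0 and 37.6 CPM in Pus10-WT, whose range covers them (log2 fold change -0.21, edgeR adjusted p = 0.984).

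Of the Argonaute genes, whose proteins hold the mature microRNA, Ago2 encodes the member that can itself cut a fully paired target. Ago2 (ENSMUSG00000036698.11, minus strand, chr15:73095844-73184935), the gene with the miR-139-3p match shown above, had 159, 150, 132, 139, 137 and 153 CPM in miR139-KD, against 138, 135, 106, 124, 124 and 114 CPM in NTC. Every miR139-KD library was above the NTC median, with overlap at the lower end. The log2 fold change of 0.23 (SE 0.0972, 95% interval 0.02 to 0.44) did not pass the test (edgeR adjusted p = 0.252). In PUS10-OE the gene had 41.6, 44.5 and 29.8 CPM, against 27.5, 37.9 and 34.2 CPM in Vector (log2 fold change 0.22, edgeR adjusted p = 0.894). Libraries labelled Pus10-KO had 103, 63.2 and 79.3 CPM, against 82.2, 65.1 and 97.5 CPM in Pus10-WT, and these ranges nearly coincide (log2 fold change 0.0015, 95% interval -0.55 to 0.55). Of its exonic bases, 1.56% overlap Chrac1 on the opposite strand.

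Ago1 (ENSMUSG00000041530.16, minus strand, chr4:126435012-126468583), which encodes an Argonaute that represses targets without this cut, had 46.1, 88.2 and 57.6 CPM in the libraries labelled Pus10-KO, against 34.9, 59.2 and 40.8 CPM in Pus10-WT. The ranges overlapped, and the gene did not pass the test (log2 fold change 0.51, 95% interval -0.22 to 1.23, edgeR adjusted p = 0.881). It had 17.4, 20.5 and 16.9 CPM in PUS10-OE, against 16.9, 15.9 and 15.4 CPM in Vector, and the log2 fold change was 0.18 (edgeR adjusted p = 0.908). The range was 44.4 to 70.7 CPM in miR139-KD (median 61.4) and 48.5 to 69.1 CPM in NTC (median 53.9), with overlap.

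Ago3 (ENSMUSG00000028842.15, minus strand, chr4:126331704-126429556), the neighbour of Ago1 on chromosome 4, was the least abundant Argonaute of the 3. It had 13.5, 15.9 and 12.1 CPM in PUS10-OE, against 15.7, 18.3 and 8.86 CPM in Vector, and 43.9, 28.8 and 43.0 CPM in the libraries labelled Pus10-KO, against 41.5, 34.4 and 36.6 CPM in Pus10-WT. Its range was 11.9 to 29.8 CPM in miR139-KD and 9.57 to 29.4 CPM in NTC. None of these pairs of groups separated, and the 3 log2 fold changes lay between -0.05 and 0.17 (edgeR adjusted p from 0.882 to 0.999).

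The Argonaute genes were also compared as shares of the summed TPM of Ago1 to Ago4, which are free of library scaling. Ago2 held 42.6% to 45.4% in PUS10-OE and 33.4% to 47.8% in Vector, and 46.8% to 54.2% in miR139-KD and 42.5% to 53.9% in NTC. In the third experiment it held 21.7% to 42.9% in the libraries labelled Pus10-KO and 27.9% to 42.1% in Pus10-WT. Treated and control libraries overlapped in each experiment. Ago3 held 3.49% to 9.22% in miR139-KD and 3.28% to 9.14% in NTC, while it held 12.5% to 14.6% in PUS10-OE and 10.5% to 18.9% in Vector, and 8.37% to 15.6% in the libraries labelled Pus10-KO and 12.5% to 17.6% in Pus10-WT. The summed Argonaute level was 45.6 to 56.5 TPM in the libraries labelled Pus10-KO, against 34.0 to 39.6 TPM in Pus10-WT, without overlap. By CPM, 6.86% of all genes tested there were higher without overlap. In the other experiments the summed level overlapped. It was 12.7 to 17.5 TPM in PUS10-OE and 13.8 to 16.1 TPM in Vector, and 39.0 to 59.0 TPM in miR139-KD and 36.3 to 54.9 TPM in NTC. TPM values are shares of a library, and B and plasma cell transcripts made up a larger share of the Pus10-WT libraries, as given above. Their part in the Argonaute sum was not tested. Mean Ago2 in the libraries labelled Pus10-KO and in Pus10-WT was 15.6 and 13.9 TPM, but 81.7 and 81.6 CPM. Mean Ago1 in these groups was 21.2 and 13.2 TPM, and 64.0 and 45.0 CPM.

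**Figure D4:**
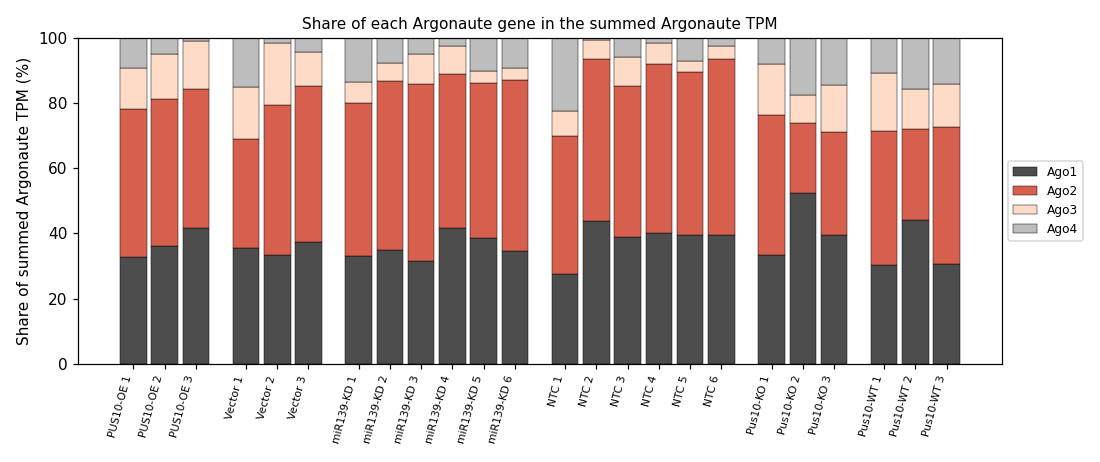
Share of each Argonaute gene in the summed Argonaute TPM (vertical axis, %), 1 stacked bar per library, treated libraries left of their controls. The Ago3 segment is 3.28% to 9.22% in the miR139-KD and NTC libraries.

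Levels of several of the 10 genes differed between the control groups of the 3 experiments, read with all 24 libraries scaled together. Ddx5 was at 3095 to 3415 CPM in Vector, against 772 to 1039 CPM in NTC and 1350 to 1716 CPM in Pus10-WT. Ddx17 stood the other way round, at 44.5 to 53.3 CPM in Vector, against 203 to 258 CPM in NTC and 160 to 221 CPM in Pus10-WT. Drosha, Dicer1, Ago1 and Ago2 were likewise lower in Vector than in NTC without overlap, so 5 of the 10 genes were lower and 1 higher, where 18.5% of all genes were lower and 22.1% higher without overlap. Against Pus10-WT, 6 of the 10 were lower in Vector (26.6% of all genes) and 1 higher (25.1%). Between NTC and Pus10-WT, 7 of the 10 overlapped, Ago2 was higher in NTC (13.3% of all genes) and Ago3 and Ddx5 were lower (14.2%). The control groups came from separate experiments of unlike depth, and their marker levels, scaled within each experiment, also differed. Granulocyte markers summed to 53.1 to 90.3 CPM in Vector, 1475 to 14488 CPM in NTC and 538 to 814 CPM in Pus10-WT. B and plasma cell markers summed to 0 to 1.08 CPM in Vector, 396 to 10688 CPM in NTC and 13114 to 15451 CPM in Pus10-WT. Experiment, depth, preparation and cell content cannot be told apart. Genes were also split by exonic bases, at 2666, 4380 and 6803, into sets of 2630 or 2631 genes. From the shortest set to the longest, the median log2 ratio of Vector to NTC was 0.08, 0.35, 0.04 and -0.21. The part of length in these contrasts was not tested.

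The wider pathway was read from lists of partners. Of 23 partners of processing and of the Argonaute complex, among them Prkra, Ran, Srrt, Khsrp, Ago4 and the Tnrc6 genes, 21 were tested in PUS10-OE, 20 in miR139-KD and 20 in the libraries labelled Pus10-KO. By edgeR 0 were called in each, with 1, 2 and 2 at an unadjusted p under 0.05, and their median log2 fold changes were 0.09, -0.04 and 0.05. Lin28a, Lin28b and Trim71, regulators of let-7 in embryonic cells, account for the untested partners. Lin28a had at most 8 reads and Trim71 at most 2 reads in a library where they were not tested. Lin28b, named here after its values were seen, was at 0 in all 6 miR139-KD libraries, against 46, 22, 47, 148, 6 and 83 reads in NTC libraries, and did not pass the filter on low counts. The miR139-KD and NTC groups did not overlap, and the difference was not tested. Among genes tested in that experiment, 1.78% were lower in miR139-KD without overlap. Elsewhere Lin28b had 0, 191 and 120 reads in Vector and 141, 74 and 149 reads in PUS10-OE. It had 0, 0 and 4 reads in Pus10-WT and 0 in every library labelled Pus10-KO. Of 24 genes of deadenylation and decapping, the steps by which Argonaute targets are degraded, 24 were tested in each experiment, and 1 was called in miR139-KD and 0 in the others. The called gene was Pabpc1, the main cytoplasmic poly(A)-binding protein. It rose to 1830 ± 90.5 CPM in miR139-KD, against 1468 ± 165 CPM in NTC (SD, n = 6 each), 0.32 higher on the log2 scale with an SE of 0.0745 (edgeR adjusted p = 0.0347). Pabpc1 has closely similar gene copies, so its counts are uncertain where reads could be split among them. In this list 3, 7 and 5 genes stood at an unadjusted p under 0.05 in PUS10-OE, miR139-KD and the libraries labelled Pus10-KO. Beside both lists, 8.19%, 16.0% and 6.86% of all genes tested stood at an unadjusted p under 0.05. In miR139-KD 2.72% of all genes tested were called.

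Ddx5 was also set beside the other genes named Ddx with a number, a list chosen after the values were seen. Of these, 34 were tested in miR139-KD, and their median log2 fold change was -0.13. Among them 1 was called, where 2.72% of all genes tested were. The called gene was Ddx41, a helicase of splicing and nucleic acid sensing. It fell to 54.1 ± 9.66 CPM in miR139-KD, against 94.8 ± 7.89 CPM in NTC (SD, n = 6 each), -0.81 on the log2 scale (edgeR adjusted p = 0.00640). Over all 24 libraries with group means removed, the genes whose log2 CPM followed Ddx5 most closely, among 9190 genes, were Smc5 (Pearson r = 0.80), Capza2 (r = 0.79) and Lamp2 (r = 0.79). The 24 libraries share depth and composition within experiments, and these values are a description. Of the other 9 genes, Tarbp2 was nearest to Ddx5 (r = 0.36) and Drosha farthest (r = -0.29), with Ddx17 at 0.15.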

How the data were processed

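The authors deposited raw counts, whole reads for each of 55487 gene IDs in each of 24 libraries, without normalization. The submitters' processing notes name HISAT2 2.1.0, the mm10 build, HTSeq 0.11.2 and DESeq2; the annotation release and strand setting are not given in the sources used here. Per the labels' protocols, libraries were made by Smart-seq2, which does not mark the strand. Reads outside genes (3.70% to 12.0%) and ambiguous reads (6.53% to 20.1%) stayed out of library sizes and tests. Symbols, coordinates and exon lengths came from GENCODE M21 (55394 IDs matched; 10 of the 10 genes), microRNAs from RefSeq.

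A separate fit was made for each experiment in R 4.3.3 with edgeR 4.0.16 (filterByExpr, TMM, robust quasi-likelihood F test, two-sided). Differences between experiments were tested in 1 fit over all 6 groups, and control groups were compared as CPM with 1 scaling over 24 libraries. Alternatives were DESeq2 1.42.0, limma-voom (limma 3.58.1), other scalings and filters, a replicate block, a fit of all groups and libraries left out. Fits were tested on simulated counts. All 42 pairs of libraries within groups differed beyond sampling noise (chi-square of at least 31.9 per degree of freedom). SEs and intervals reflect the spread between libraries as well as counting error, and reads carry no molecular identifiers. The labels give no batch.

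The genes and lists were chosen with earlier results of these data known. Named are the 10 genes, Pus10, up to 4 called genes per list, and the 3 genes most like each called member by Pearson r (mean log2 CPM of at least 3, prior count 2). Figures were drawn with matplotlib 3.10.9.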

Additional observations from a re-analysis of the deposited data

Results flagged for a closer look

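Of 20 pairs of gene and group with 6 libraries each and tested for a library far from the rest (Dixon's test at 95%), 2 stood out, both for Dgcr8, and chance alone flags about 1 in 20 such groups. In miR139-KD, replicate 6 was the highest at 42.9 CPM. In NTC, replicate 1 was the lowest at 10.0 CPM. Without miR139-KD replicate 6 the log2 fold change of Dgcr8 was 0.30 (edgeR adjusted p = 0.658), and without NTC replicate 1 it was 0.39 (edgeR adjusted p = 0.539).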

How the results depend on the processing

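Of the 10 genes, Ddx5 in miR139-KD was the only one called, and the count of 1 became 0 where NTC replicate 6 and miR139-KD replicate 1 were left out together (adjusted p = 0.0597); with single libraries left out it was 1 to 1, and the counts for PUS10-OE and Pus10-KO were 0 to 0. Counts over all genes moved more. In PUS10-OE, 0 calls became 9 with a filter of 10 CPM, 248 with DESeq2 and 5 with all 6 groups in 1 fit, and 0 to 0 with a library left out. In miR139-KD, 361 became 1078 with DESeq2, 212 without the pair, 792 with all groups, and 196 to 340 with a library left out. In Pus10-KO, 9 became 233 with DESeq2, 3 with limma-voom, 15 with all groups, and 0 to 10 with a library left out.

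Over genes as a whole, same-numbered libraries of treated and control groups were not alike once the mean of each group was removed. The correlation of their log2 CPM was then -0.083 to 0.00038, -0.034 to 0.0065 and -0.11 to 0.034 in the 3 experiments, and no such pair exceeded 0.1. Some genes were alike by number, as the B and plasma cell marker sum was highest in the replicates 5 of miR139-KD and NTC. Ago3 was lowest in replicates 5 and 6 of both groups, at 11.9 and 12.4 CPM in miR139-KD and 9.57 and 10.1 CPM in NTC. With the replicate block, 0, 188 and 2 genes were called, and Ddx5 in miR139-KD had an adjusted p of 0.0484.

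Log2 fold changes that changed sign were uncalled and mostly near 0, and the cause was not tested. In PUS10-OE, Ago3 was 0.049 with limma-voom and 0.0048 with the block. In miR139-KD without the pair, Ago3 was -0.024 and Xpo5 -0.053. In Pus10-KO, Ago2 was -0.0040 with upper-quartile scaling, -0.0027 with the 10 CPM filter, -0.030 with limma-voom and -0.0072 with the block, Ago3 was -0.015 with limma-voom, and Dicer1 -0.028 with the block. The Ddx5 difference of PUS10-OE less Pus10-KO was 0.011 with upper-quartile scaling and -0.10 to 0.066 with a library left out. Leaving out a library gave, in PUS10-OE, -0.033 to 0.12 for Tarbp2, -0.30 to 0.17 for Ago3, -0.27 to 0.43 for Dicer1 and -0.022 to 0.25 for Ddx17. In Pus10-KO it gave -0.049 to 0.34 for Drosha, -0.75 to 0.30 for Dgcr8, -0.062 to 0.21 for Ago3, -0.20 to 0.16 for Ago2 and -0.40 to 0.30 for Dicer1. Over the alternatives that leave out no single library, 269 fold changes of the 10 genes kept their direction and side of the threshold, 11 changed sign and 1, Ddx5, lost its call. Leaving out the replicates 5 of miR139-KD and NTC together, chosen after seeing the data, gave 242 calls. With 3 libraries a group, 95% intervals were widest for Dgcr8 in Pus10-KO (-1.42 to 1.15) and Dicer1 in PUS10-OE (-0.81 to 1.06). The data do not tell apart changes inside such bounds, and these bounds are not limits of detection.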
